A study of Mus musculus with 22 samples.

Results

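The 10 genes described here produce, transport or present the peptides of MHC class I, and they were measured in microglia of Trem2 knockout (KO) and wild-type (WT) mice. They are B2m, Tap1, Tap2, Tapbp, Psme1, Psme2, Psmb8, Psmb9, H2-M3 and H2-Q4, chosen by symbol. The choice was made with earlier results of these data known, as was that of the other lists. Shares of all genes set beside their counts are therefore a description. Each was read from a probe set that maps to it alone, the one with the highest mean where there are several, and each had 1 such probe set. They are 10 of the 19936 genes with a single-gene probe set, and all 10 were among the 11830 genes bright enough to test. The bar was an intensity above the array's median on at least 2 arrays. H2-K1 and H2-D1, which belong to the same pathway, were not analysed here, for want of a probe set that maps to them alone.

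Microglia were sorted from brain by staining for CD45, CD11b and F4/80 together, and RNA was hybridised to 22 Affymetrix arrays, 1 per sample. Cuprizone in the feed chelates copper, is toxic to oligodendrocytes and causes demyelination. Covi-Ox T70 contains mixed tocopherols, forms of vitamin E. The KO groups were KO set A (3 arrays), KO set B (3 arrays), KO cuprizone (3 arrays, 0.2% cuprizone in the feed for 4 weeks) and KO control (2 arrays). The WT groups were WT both (3 arrays, 0.2% cuprizone with 0.1% Covi-Ox for 4 weeks), WT cuprizone (3 arrays, 0.2% for 4 weeks), WT Covi-Ox (3 arrays, 0.1%, labelled as 4 weeks) and WT control (2 arrays). Mice of the combined diet had eaten Covi-Ox for 2 weeks beforehand, and mice of the cuprizone diet had eaten chow for that time. The labels contradict each other for KO sets A and B. In set A the titles name cuprizone with Covi-Ox and the treatment labels name Covi-Ox, and in set B the titles name Covi-Ox alone and the treatment labels name both. The treatment labels give 4 weeks for both sets. Neither set was given a diet, and each was compared with both WT diets. The control groups are labelled only as negative controls, and the sources used here do not give strain, age or the kind of Trem2 deletion. Nor do the labels say whether arrays of a group came from separate animals, so p-values measure the spread between these samples.

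MHC class I molecules show peptides from inside the cell to CD8 T cells. A heavy chain (H2-M3 and H2-Q4 are non-classical examples) pairs with the invariant light chain beta-2 microglobulin, encoded by B2m. The peptides come largely from the proteasome. Under interferon the catalytic subunits Psmb8 and Psmb9, with Psmb10, take the places of the constitutive Psmb5, Psmb6 and Psmb7 to form the immunoproteasome, and Psme1 and Psme2 form the PA28 cap that opens it. Tap1 and Tap2 form the transporter that carries peptides into the endoplasmic reticulum, and Tapbp encodes tapasin, which bridges that transporter to the empty heavy chain. Microglia hold this pathway at a low level in the healthy brain and are known to raise it during demyelination and interferon exposure.

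The promoter windows below run from 250 bases before to 50 bases after the gene's start. They are shown because the interferon response of these genes is read through short elements near the start. RefSeq gave a window for 9 of the 10 genes (build GRCm38.p6); Tap2 is named only. Capitals mark a match, on either strand, to the core of the interferon-stimulated response element (GAAA, any 2 bases, GAAA), the gamma-activated site of interferon gamma signalling (TTC, any 3 bases, GAA) or an NF-kB element (GGG, any 2 bases, TTTCC). The windows shown are those of B2m (chr2:122147437-122147736, plus strand), Tap1 (chr17:34187306-34187605, plus strand), Psme1 (chr14:55578244-55578543, plus strand), Psmb8 (chr17:34197945-34198244, plus strand) and H2-M3 (chr17:37269984-37270283, plus strand).
B2m: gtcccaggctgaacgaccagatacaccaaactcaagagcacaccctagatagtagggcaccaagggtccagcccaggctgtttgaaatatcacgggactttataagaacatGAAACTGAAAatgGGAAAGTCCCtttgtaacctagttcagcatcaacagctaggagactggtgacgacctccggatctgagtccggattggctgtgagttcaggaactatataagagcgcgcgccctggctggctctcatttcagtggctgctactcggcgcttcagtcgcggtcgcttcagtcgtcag
Tap1: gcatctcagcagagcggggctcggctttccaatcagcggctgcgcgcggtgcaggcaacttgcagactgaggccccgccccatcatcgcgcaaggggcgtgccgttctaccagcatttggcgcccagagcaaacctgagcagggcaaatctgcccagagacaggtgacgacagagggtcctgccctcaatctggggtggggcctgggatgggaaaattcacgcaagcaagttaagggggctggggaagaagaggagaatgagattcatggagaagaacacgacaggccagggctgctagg
Psme1: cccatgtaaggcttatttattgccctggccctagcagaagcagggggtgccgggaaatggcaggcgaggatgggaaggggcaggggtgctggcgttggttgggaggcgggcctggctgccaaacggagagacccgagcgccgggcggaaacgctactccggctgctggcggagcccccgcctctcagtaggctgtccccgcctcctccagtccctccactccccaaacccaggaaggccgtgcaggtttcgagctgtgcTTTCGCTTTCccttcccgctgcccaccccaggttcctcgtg
Psmb8: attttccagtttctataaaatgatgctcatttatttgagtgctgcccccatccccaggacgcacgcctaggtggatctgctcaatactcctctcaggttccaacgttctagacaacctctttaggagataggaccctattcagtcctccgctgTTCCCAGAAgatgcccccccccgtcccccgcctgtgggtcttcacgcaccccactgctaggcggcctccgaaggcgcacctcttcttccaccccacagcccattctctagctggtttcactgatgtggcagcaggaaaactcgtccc
H2-M3: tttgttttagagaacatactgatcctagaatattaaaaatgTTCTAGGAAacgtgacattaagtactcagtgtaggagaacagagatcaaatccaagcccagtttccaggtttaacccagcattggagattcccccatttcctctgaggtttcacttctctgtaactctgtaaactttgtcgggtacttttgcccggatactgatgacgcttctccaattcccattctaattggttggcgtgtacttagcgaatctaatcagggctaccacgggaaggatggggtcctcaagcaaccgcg

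The B2m window holds a response element core 139 to 130 bases before the start and an NF-kB match 126 to 117 bases before it. Psme1 has a response element core 9 to 18 bases after the start. Psmb8 has a gamma-activated site 97 to 89 bases before the start, and H2-M3 has one 209 to 201 bases before. H2-Q4 has an NF-kB match 174 to 165 bases before its start. None of these letter patterns is in the windows of Tap1, Tapbp, Psme2 or Psmb9, which says only that the letters are not in these windows. The response element core was found for 2 of the 9 genes, against 3.993% of 27025 genes with a window. Genes of chromosome 18 were left out of these 27025. The gamma-activated site was found for 2 of the 9, against 9.554%, and the NF-kB pattern for 2 of the 9, against 1.895%. No motif overlaps another in a printed window. Tap1 and Psmb9 are transcribed away from each other from starts 226 bases apart, so their windows share 275 bases, and the Tap1 sequence above is largely that of Psmb9 read from the other strand.

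A probe set's level cannot be set against another probe set's, so each gene is described against its own range. B2m (probe set 10475414) lay between 4715 and 5530.1 on all 22 arrays, near the top of the array (mean percentile 99.8). Psmb9 (10450145) ran from 492 to 947, Psme1 (10415282) from 503 to 981 and Psmb8 (10444258) from 281 to 577. Psme2 (10420030) ran from 182 to 384, Tapbp (10444068) from 229 to 386 and H2-M3 (10445119) from 109 to 368. Tap1 (10444244) ran from 68.1 to 176, Tap2 (10444268) from 58.4 to 92.1 and H2-Q4 (10444814) from 38.6 to 70.6. The mean percentile on the array was 59.2 for H2-Q4 and 66.9 for Tap2, near the bar for testing. H2-Q4 belongs to a family of close copies, so its probe set may also read relatives. Of the 10 genes, 7 lie on chromosome 17, as does Trem2, with Psme1 and Psme2 on chromosome 14 and B2m on chromosome 2.

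**Figure D1:**
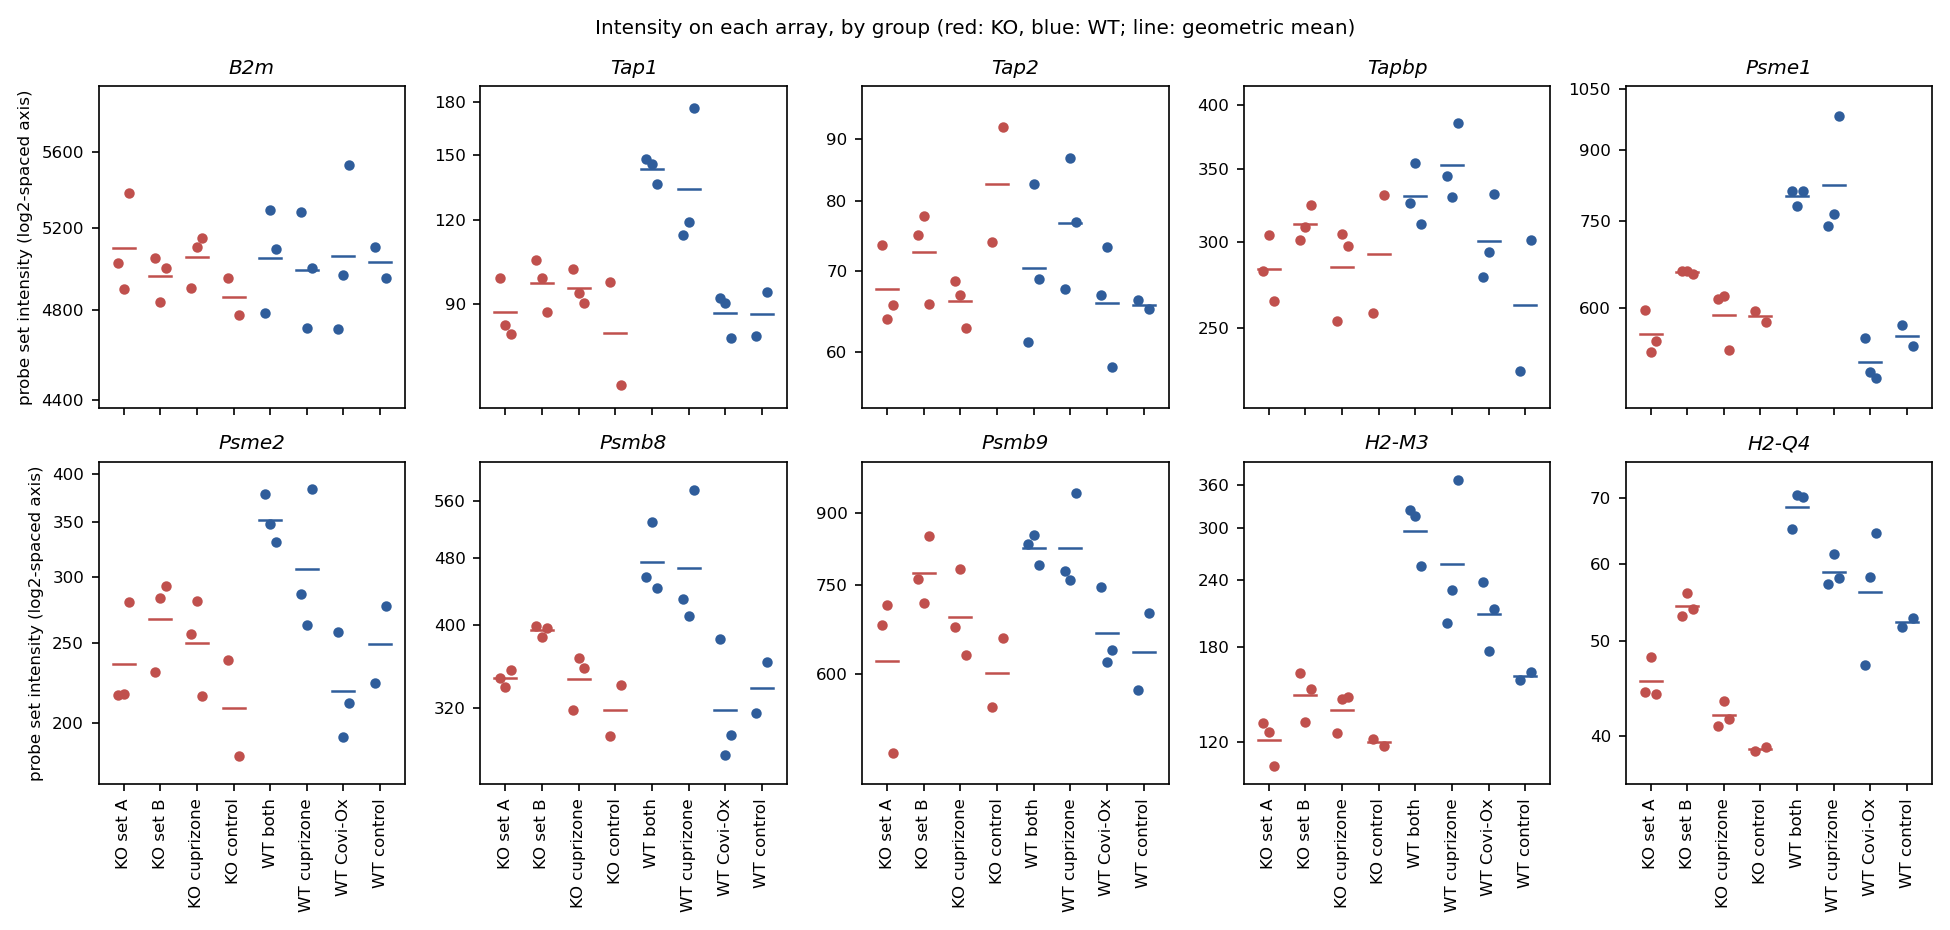
Probe set intensity of each of the 10 genes on every array (vertical axis, log2-spaced), by group, with KO in red and WT in blue and a line at the geometric mean. Tap1, Psme1 and Psmb8 on the 6 arrays of WT mice fed cuprizone lie above every other array, and B2m stays between 4715 and 5530.1 throughout.

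The first comparison asked what cuprizone did in WT microglia. Psme1, a subunit of the PA28 cap, rose, and 8 of the other genes had positive differences that did not pass the test. Psme1 read 742, 764 and 981 in WT cuprizone, against 575 and 545 in WT control. All 3 cuprizone arrays lay above both controls. The log2 difference was 0.55 ± 0.11 (SE), a fold of 1.47 (limma, adjusted p = 0.0102). Psme1 was the 1 of 10 called higher, where 1.8% of all genes tested were called higher. In bulk RNA a change in the number of expressing cells and a change in RNA per cell cannot be told apart.

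Tap1 read 114, 119 and 176 in WT cuprizone, against 80.6 and 93.7 in WT control. H2-M3 read 200.1, 230.3 and 368 in WT cuprizone, against 156 and 162 in WT control. For both genes the groups did not overlap, and the array labelled replicate 3 was far above the other cuprizone arrays. The differences, 0.62 ± 0.17 for Tap1 (adjusted p = 0.0549) and 0.69 ± 0.19 for H2-M3 (adjusted p = 0.0587), missed the threshold. Psmb8 read 429.8, 411 and 577 in WT cuprizone, against 315 and 362 in WT control, without overlap (0.47 ± 0.15, adjusted p = 0.104). Tapbp differed by 0.43 ± 0.14 (adjusted p = 0.107), Psmb9 by 0.38 ± 0.16 (adjusted p = 0.229), Psme2 by 0.30 ± 0.18, Tap2 by 0.22 ± 0.14 and H2-Q4 by 0.17 ± 0.11. B2m was flat, at −0.01 ± 0.10. Of the 10 genes, 8 had all cuprizone arrays above both controls, where 15.3% of all genes did. The median difference of the 10 was 0.40, against −0.02 for all genes tested.

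Replicate 3 of WT cuprizone stood apart from its group. Its log2 values differed from those of the other replicates with an SD of 0.40 and 0.41 over genes, against 0.23 between the other replicates. The mean of 22 immediate-early genes, which cells switch on during tissue dissociation, was 8.77 on the log2 scale there, against 10.2 on the others. KO cuprizone replicates 2 and 3 were also low, at 9.11 and 9.17. Wide SDs between replicates were not limited to WT: it was 0.39 between the KO control arrays and 0.27 to 0.35 among the KO cuprizone arrays. Replicate 3 was the highest WT cuprizone array for 7 of the 10 genes. Without it Psme1 stayed called (0.43, adjusted p = 0.0477), and Tap1 came to 0.42 (adjusted p = 0.251) and H2-M3 to 0.43 (adjusted p = 0.257). The Psme1 call was lost without WT control replicate 1 (0.59, adjusted p = 0.0805), without WT control replicate 2 (0.52, adjusted p = 0.13) and when only the arrays compared were fitted (adjusted p = 0.328).

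On the Covi-Ox diet the same question had 3 arrays a side. A transporter subunit, a catalytic subunit and both PA28 subunits rose in WT both. Psme1 read 811, 779 and 809 in WT both, against 557, 510.4 and 503 in WT Covi-Ox (0.61 ± 0.10, fold 1.53, adjusted p = 0.000568). Tap1 read 148, 145 and 136 in WT both, against 91.9, 90.3 and 80.2 in WT Covi-Ox (0.71 ± 0.15, fold 1.64, adjusted p = 0.00514). For both genes a wide gap separated the groups. Psmb8 read 456, 529 and 443 in WT both, against 385, 281 and 297 in WT Covi-Ox (0.58 ± 0.13, adjusted p = 0.00853). Psme2 read 379, 349 and 331 in WT both, against 257, 192 and 211 in WT Covi-Ox (0.69 ± 0.16, adjusted p = 0.0114). Neither pair of groups overlapped. These were 4 of 10 called higher, where 4.65% of all genes tested were, and 7 of 10 had groups that did not overlap, where 13.1% did.

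The remaining genes were not called on that diet. H2-M3 differed by 0.51 ± 0.17 (adjusted p = 0.0741), H2-Q4 by 0.29 ± 0.10 (adjusted p = 0.0802) and Psmb9 by 0.31 ± 0.14 (adjusted p = 0.211). Tapbp (0.13 ± 0.12), Tap2 (0.10 ± 0.13) and B2m (−0.00 ± 0.09) were close to 0, and the interval for B2m ran from −0.18 to 0.18. The Psmb8 call was lost without WT Covi-Ox replicate 2 (adjusted p = 0.0593) and without WT both replicate 2 (adjusted p = 0.0584). The Psme2 call was lost without WT Covi-Ox replicate 2 (adjusted p = 0.0693) and without WT both replicate 1 (adjusted p = 0.0527).

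With the 6 arrays of WT mice fed cuprizone set against the 5 of WT mice not fed it, 8 of the 10 genes were called higher, where 7.01% of all genes were. Psme1 was higher by 0.58 ± 0.08 (adjusted p = 2.83e-05), Tap1 by 0.67 ± 0.11 (adjusted p = 0.00049), Psmb8 by 0.52 ± 0.10 (adjusted p = 0.00141) and H2-M3 by 0.60 ± 0.13 (adjusted p = 0.00379). These 4 were called in all 23 alternative settings. Psme2 (0.50 ± 0.12, adjusted p = 0.0109), Psmb9 (0.34 ± 0.10, adjusted p = 0.0366), H2-Q4 (0.23 ± 0.07, adjusted p = 0.0443) and Tapbp (0.28 ± 0.09, adjusted p = 0.0484) were called with less margin. Counted at adjusted p under 0.05 in every setting, Psme2 was called in 22 of 23 alternatives, Psmb9 in 12 and Tapbp in 10. H2-Q4 was called in 6 of the 22 that tested it. None of these 4 passed at adjusted p under 0.01. The count was 5 without the 3 arrays low in immediate-early genes, 5 when their mean entered the model as a term and 4 without WT control replicate 1. Tap2 (0.16 ± 0.10, adjusted p = 0.315) and B2m (−0.01 ± 0.06) were not called. Arrays of Psme1, Tap1, Psmb8 and Psmb9 did not overlap between the diets, 4 of 10 genes, where 4.76% of all genes did not.

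Covi-Ox itself moved none of the 10 genes past the threshold in limma. WT Covi-Ox against WT control gave 0 of 10 calls (0.0338% of all genes), 0 at an unadjusted p under 0.05, with differences from −0.19 ± 0.18 for Psme2 to 0.38 ± 0.19 for H2-M3. H2-M3, alone of the 10, was higher on every WT Covi-Ox array (238, 177 and 212) than in WT control (156 and 162). Of all genes, 13.4% were. WT both against WT cuprizone gave 0 of 10 (0.152% of all genes), and H2-Q4 (0.22 ± 0.10) was the 1 with an unadjusted p under 0.05. At least 607 of the 11830 genes tested were under that level too. H2-Q4, alone of the 10, was higher on every WT both array (65.1, 70.6 and 70.2) than in WT cuprizone (57.2, 61.4 and 58). Of all genes, 5.37% were. The cuprizone effect on Covi-Ox minus that on chow gave 0 of 10 (0.0254% of all genes), 0 unadjusted, from −0.29 ± 0.18 for Tapbp to 0.39 ± 0.25 for Psme2. For Psme1 the 95% interval of WT Covi-Ox against WT control ran from −0.33 to 0.14, and for Tap1 from −0.34 to 0.36.

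In KO microglia cuprizone gave no call among the 10 genes in limma. Of the 10, 1, Tap2, had an unadjusted p under 0.05, a level not counted for all genes. Psme1 read 614, 619.6 and 539 in KO cuprizone, against 596 and 579.8 in KO control, with the groups overlapping (0.00 ± 0.11). The 95% interval ran from −0.23 to 0.24, and the difference from the WT effect is tested in the next paragraph. Tap1 read 101, 93.4 and 90.4 in KO cuprizone, against 97.2 and 68.1 in KO control, also overlapping (0.22 ± 0.17). Psmb8 differed by 0.12 ± 0.15, Psmb9 by 0.20 ± 0.16, Psme2 by 0.26 ± 0.18, H2-M3 by 0.20 ± 0.19 and H2-Q4 by 0.11 ± 0.11. Tap2 ran the other way, with 68.7, 66.9 and 62.9 in KO cuprizone, against 74 and 92.1 in KO control (−0.32 ± 0.14, adjusted p = 0.332). The comparison as a whole had few calls, 0.0423% of genes in either direction. KO cuprizone replicates 2 and 3 were low in immediate-early genes. The KO control arrays differed from each other with an SD of 0.39 over genes. H2-M3 and H2-Q4 had all cuprizone arrays above both controls, 2 of 10, where 10.6% of all genes did.

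Whether the cuprizone effect differed between genotypes was tested directly, as the KO effect minus the WT effect. None of the 10 was called by limma (0.228% of all genes were). Psme1, Tap2 and Tapbp, 3 of the 10, had an unadjusted p under 0.05, a level not counted for all genes. The estimates were −0.55 ± 0.16 for Psme1 (adjusted p = 0.233), −0.54 ± 0.20 for Tap2 (adjusted p = 0.354), −0.49 ± 0.27 for H2-M3 (adjusted p = 0.569) and −0.47 ± 0.19 for Tapbp (adjusted p = 0.408). The estimate was below 0 for 9 of the 10 genes, and above it for B2m (0.07 ± 0.13). The median was −0.37, against 0.01 for all genes tested. Both effects rest on control groups of 2 arrays.

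**Figure D2:**
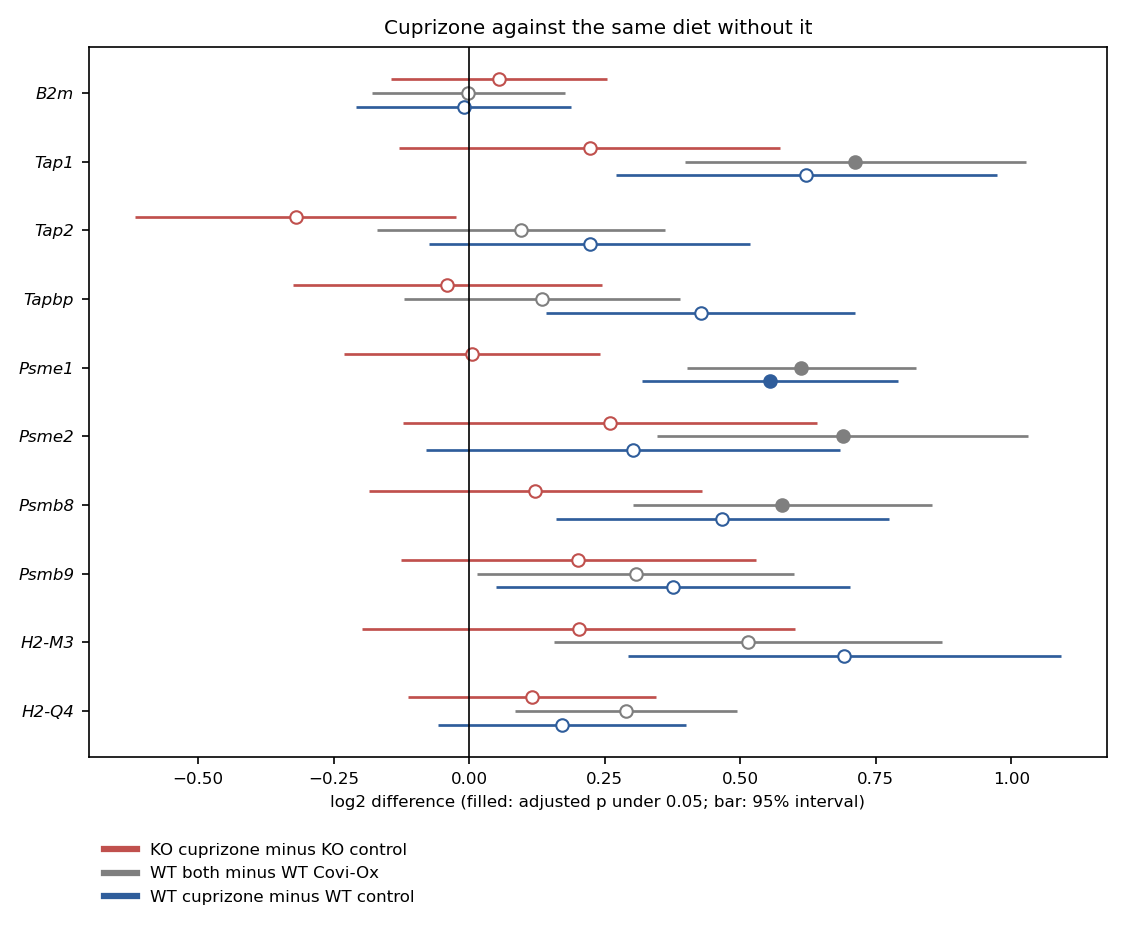
Log2 difference with its 95% interval for each gene, for cuprizone against the same diet without it in KO mice, in WT mice on Covi-Ox and in WT mice on chow (filled points have adjusted p under 0.05). Psme1 lies at 0.55 and 0.61 in WT and at 0.00 in KO, and B2m lies near 0 in all 3 comparisons.

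The genotypes were then compared on the same diet. Under cuprizone, 3 of 10 genes were called lower in KO (2.98% of all genes were) and 6 had groups that did not overlap (11.6% of all genes). H2-M3, which presents formylated peptides in mice, read 125, 144 and 146 in KO cuprizone, against 200.1, 230.3 and 368 in WT cuprizone. It was lower by 1.86-fold (−0.90 ± 0.17, adjusted p = 0.00497). H2-Q4 read 40.9, 43.4 and 41.6 in KO cuprizone, against 57.2, 61.4 and 58 in WT cuprizone (−0.49 ± 0.10, adjusted p = 0.00727). Psme1 was lower by 1.39-fold (−0.48 ± 0.10, adjusted p = 0.0103). No KO array of these genes reached a WT array. Tap1 (−0.49 ± 0.15, adjusted p = 0.0729) and Psmb8 (−0.43 ± 0.13, adjusted p = 0.0722) did not pass. Leaving out the 3 arrays low in immediate-early genes leaves 1 KO array, assumed to vary like the other groups, against 2 WT arrays. None of the 10 was then called, with H2-M3 at −0.78 (adjusted p = 0.0752), H2-Q4 at −0.53 (adjusted p = 0.142) and Psme1 at −0.29 (adjusted p = 0.35). In a model of all arrays that adjusted for the immediate-early mean, 5 were called: H2-M3 (−1.01, adjusted p = 3.84e-05), Psme1 (−0.52, adjusted p = 0.00207), H2-Q4 (−0.48, adjusted p = 0.00588), Psmb8 (−0.51, adjusted p = 0.00889) and Tap1 (−0.55, adjusted p = 0.0229). With only the compared arrays fitted, none was called. The Psme1 call was also lost without WT cuprizone replicate 3 (adjusted p = 0.0524) and without KO cuprizone replicate 3 (adjusted p = 0.0627). Of the 9 microglial markers 4 were called higher in KO cuprizone, with list means of 11.4 to 11.6 in KO cuprizone and 11.1 to 11.3 in WT cuprizone, and 4 of 20 interferon-stimulated genes were called lower.

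Between the control groups 0 of 10 genes were called (0.0676% of all genes were), with 2 arrays a side. In limma 2, H2-Q4 and Tap2, had an unadjusted p under 0.05, a level not counted for all genes. H2-Q4 read 38.6 and 38.9 in KO control, against 51.7 and 52.9 in WT control, with no overlap (−0.43 ± 0.12, adjusted p = 0.258). H2-M3 read 122 and 118 in KO control, against 156 and 162 in WT control (−0.41 ± 0.21, adjusted p = 0.505). Psme1 (0.07 ± 0.12), Psmb8 (−0.09 ± 0.16), Psmb9 (−0.08 ± 0.17) and Tap1 (−0.09 ± 0.18) were close to 0.

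Over all diets H2-M3 ran from 109 to 162 on the 11 KO arrays (median 130.5) and from 156 to 368 on the 11 WT arrays (median 230.3). Of the 11 KO arrays, 10 lay below every WT array. H2-Q4 ran from 38.6 to 56 on KO arrays (median 44.2) and from 47.2 to 70.6 on WT arrays (median 58.1), with 4 KO arrays above the lowest WT array. Psme1 overlapped more, with a KO range of 536 to 661 and a WT range of 503 to 981. B2m medians were 5003 on KO arrays and 5001 on WT arrays.

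Outside the 10 genes, 5 heavy chains and relatives were tested. H2-T10, H2-Q2, Cd1d1 and Mr1 overlapped between the genotypes, with at most 2 of the 11 KO arrays above every WT array and at most 1 below. H2-T24, picked from the 5 after its values were seen, ran from 143 to 257 on KO arrays (median 205) and from 90.5 to 161 on WT arrays (median 100.1), and 10 of the 11 KO arrays lay above every WT array. Its difference was 0.71 ± 0.20 in KO control against WT control, 0.78 ± 0.17 in KO cuprizone against WT cuprizone, and 0.95 ± 0.17 in KO set A and 1.24 ± 0.17 in KO set B against WT both. These values describe a gene chosen for them and are given with no test. H2-M3 and H2-Q4 lie on the chromosome that carries Trem2. The chromosomes of H2-T24 and the other heavy chains and relatives were not looked up. Whether position played a part was not tested.

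Both KO sets with contradictory labels were compared with both WT diets. Since the diet of neither set is known, genotype and diet cannot be told apart in these comparisons. Set A against WT both had 6 of 10 genes called lower (5.6% of all genes were) and 8 without overlap (14.2% of all genes). H2-M3 read 130.5, 126 and 109 in KO set A, against 325, 315 and 255 in WT both. It was lower by 2.45-fold (−1.29 ± 0.17, adjusted p = 3.64e-05). H2-Q4 was at −0.59 ± 0.10 (adjusted p = 0.000435), Psme1 at −0.51 ± 0.10 (adjusted p = 0.00224) and Tap1 at −0.71 ± 0.15 (adjusted p = 0.00398). Psme2 (−0.58 ± 0.16, adjusted p = 0.0286) and Psmb8 (−0.45 ± 0.13, adjusted p = 0.0327) were also called, with less margin. Neither Psme2 nor Psmb8 passed at adjusted p under 0.01, and the counts that follow use 0.05 in every setting. Psme2 was called in 13 of 18 alternatives and lost its call without each of 5 of the 6 arrays in turn (adjusted p from 0.0512 to 0.111). Psmb8 was called in 12 of 18 and lost its call without each of 5 of the 6 arrays (adjusted p from 0.0629 to 0.154) and under quantile normalization (adjusted p = 0.0562). Psmb9 was at −0.41 ± 0.14 (adjusted p = 0.0736), Tapbp at −0.22 ± 0.12 and Tap2 at −0.06 ± 0.13, and B2m was at 0.01 ± 0.09.

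Markers of cell types and of interferon differed between the same groups. Microglial markers averaged 11.49 to 11.55 in KO set A and 10.995 to 11.04 in WT both, with 8 of 9 called higher in set A. Monocyte markers averaged 4.82 to 5.08 in KO set A and 5.82 to 5.95 in WT both, with 2 of 6 called lower. Border macrophage markers averaged 7.86 to 8.23 in KO set A and 7.25 to 7.61 in WT both, with 2 of 7 called higher. Of the 20 interferon-stimulated genes 8 were called lower in KO set A than in WT both (median −0.48). In KO set B 4 of 9 microglial markers were called higher than in WT both, and 2 of 6 monocyte markers and 4 of 20 interferon-stimulated genes (median −0.44) lower. The part of these markers in the differences of the 10 genes was not tested.

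Set B against WT both had 2 of 10 called lower (2.62% of all genes were) and 6 without overlap (12% of all genes). They were H2-M3, with 162, 131 and 151 in KO set B, against 325, 315 and 255 in WT both (−1.01 ± 0.17, adjusted p = 0.000927), and Tap1 (−0.57 ± 0.15, adjusted p = 0.0373). H2-Q4 was at −0.34 ± 0.10 (adjusted p = 0.0621). The Tap1 call was lost without any of the 6 arrays in turn, with adjusted p between 0.0584 and 0.164. Against WT Covi-Ox, neither set had a call among the 10 in limma (0.161% of all genes for set A and 0.245% for set B). In that comparison 2 of 10 in set A and 3 of 10 in set B had an unadjusted p under 0.05, a level not counted for all genes. H2-M3 was the lowest there, at −0.78 ± 0.17 in set A (adjusted p = 0.0841) and −0.50 ± 0.17 in set B (adjusted p = 0.344).

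**Figure D3:**
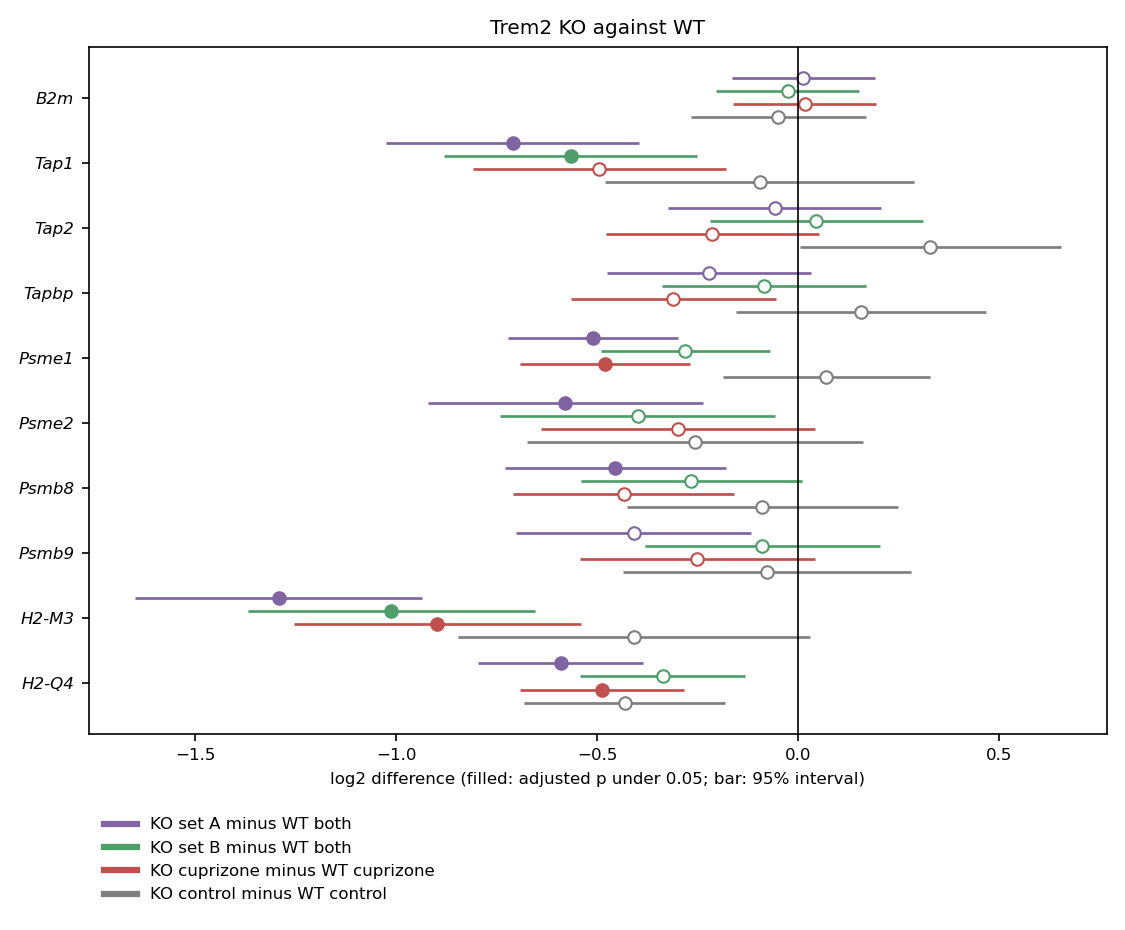
Log2 difference with its 95% interval for each gene, KO minus WT, for 2 KO sets with contradictory labels against WT both, for cuprizone and for controls (filled points have adjusted p under 0.05). H2-M3 lies at −1.29, −1.01, −0.90 and −0.41, and B2m between −0.05 and 0.02. The diet of each of the 2 KO sets is unknown, so genotype and diet cannot be told apart in their comparisons.

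Against KO control, set A had no call (0.0338% of all genes), with H2-Q4 the 1 of the 10 at an unadjusted p under 0.05. At least 1355 of the 11830 genes tested were under that level too. Set B had 1 call, H2-Q4, at 53.1, 56 and 53.9 in KO set B, against 38.6 and 38.9 in KO control (0.49 ± 0.11, adjusted p = 0.0438), where 0.549% of all genes were called higher. That call was lost without KO control replicate 2 and without each array of set B in turn (adjusted p from 0.105 to 0.307). Set A against set B had no call (0.00845% of all genes), and 3 of 10 had an unadjusted p under 0.05, a level not counted for all genes. On every set A array 5 of the 10 genes were lower (9.37% of all genes). Psmb8, for example, read 346, 339 and 354 in KO set A, against 399, 387 and 398 in KO set B (−0.19 ± 0.13, adjusted p = 0.713).

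The order of group means is given for Tap1, Psme1 and H2-M3, as a description. For Tap1 the 6 lowest groups, from KO control (6.35 on the log2 scale) to KO set B (6.59), each overlapped their neighbour. A gap then separated KO set B from WT cuprizone (7.06), which overlapped WT both (7.16). For Psme1 the order from low to high was WT Covi-Ox, WT control, KO set A, KO control, KO cuprizone, KO set B, WT both and WT cuprizone. KO set B stood clear of its neighbours on both sides. For H2-M3 all 4 KO groups came first, from 6.91 in KO control to 7.20 in KO set B, and KO set B overlapped WT control (7.31). WT Covi-Ox (7.70), WT cuprizone (8.01) and WT both (8.21) followed, each overlapping the next. Group means of B2m spanned 0.07 in all, as much as its SD within groups (0.07).

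The proteasome subunits that the inducible ones replace were measured too. Psmb5, the constitutive counterpart of Psmb8, differed by 0.15 ± 0.14 in WT cuprizone and 0.15 ± 0.13 in WT both, not called in either. The log2 ratio of Psmb8 to Psmb5 was higher by 0.32 in WT cuprizone than in WT control and by 0.43 in WT both than in WT Covi-Ox. Arrays of the first pair overlapped (−0.57 to −0.05 in WT cuprizone, −0.73 to −0.55 in WT control), and those of the second did not. Psmb6, the counterpart of Psmb9, was higher by 0.61 ± 0.14 in WT both than in WT Covi-Ox (adjusted p = 0.00798) and by 0.43 ± 0.15 in WT cuprizone, not called. The ratio of Psmb9 to Psmb6 accordingly differed by −0.30 and −0.06. Psmb10, the third inducible subunit, was at 0.02 ± 0.13 and 0.33 ± 0.12 (adjusted p = 0.953 and 0.097), and Psmb7, its counterpart, at −0.01 ± 0.14 and 0.34 ± 0.12. These ratios compare how 2 probe sets changed, and were given no test.

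Of the remaining proteasome genes, 1 of 11 core subunits was called higher in WT cuprizone, Psmb4 (0.44 ± 0.11, adjusted p = 0.0352), and 0 of 11 in WT both. Of 17 subunits of the 19S cap, 0 were called in either comparison, and the list medians were 0.08 and 0.10. Among 5 tested heavy chains and relatives (H2-T10, H2-T24, H2-Q2, Cd1d1 and Mr1, of 18 listed) 0 were called in either, with medians of 0.22 and −0.01. Of 9 peptide loading and trimming genes 0 were called (medians 0.11 and −0.07). MHC class II, measured by 8 genes, had 0 called in WT cuprizone and 1 in WT both, Cd74, the invariant chain (0.66 ± 0.14, adjusted p = 0.00466).

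Regulators gave few calls. Irf7, which amplifies type I interferon production, was higher in WT cuprizone by 1.29 ± 0.27 (adjusted p = 0.0139) and in WT both by 1.24 ± 0.25 (adjusted p = 0.00297). It was the 1 of 18 called higher in each. Ifngr1, a chain of the interferon gamma receptor, was lower in WT both, at −0.36 ± 0.09 (adjusted p = 0.0221). Nlrc5, the transactivator of MHC class I, was at 0.03 ± 0.14 and −0.06 ± 0.12 by its brightest probe set. With its probe sets averaged it was at 0.25 (adjusted p = 0.26) and 0.30 (adjusted p = 0.082), and over both diets at 0.28, which passed (adjusted p = 0.021). Irf1, which drives several of the 10 genes under interferon gamma, was at −0.42 ± 0.18 (adjusted p = 0.253) and 0.04 ± 0.16.

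Interferon-stimulated genes as a list had 11 of 20 tested called higher in WT cuprizone and 16 of 20 in WT both, with medians of 0.90 and 0.97. Ifi27l2a was higher by 2.05 ± 0.34 in WT cuprizone and 2.61 ± 0.31 in WT both, and Oasl2, a member of the oligoadenylate synthetase family, by 1.80 ± 0.27 in WT cuprizone (adjusted p = 0.000946; it was called in WT both too, adjusted p = 0.000252). Ifit2 was higher by 1.92 ± 0.30 in WT cuprizone. Rtp4 was called in both comparisons (adjusted p = 0.00446 in WT cuprizone and 0.00409 in WT both). Usp18, which restrains interferon signalling, was higher by 1.44 ± 0.23 and Oas1a by 1.40 ± 0.28 in WT both. In KO cuprizone 0 of 20 were called against KO control, with a median of 0.48. In KO set A against KO control 1 of 20 was called higher (median 0.57), and in KO set B 4 of 20 (median 0.65). The medians of the 10 genes in these 3 comparisons were 0.12, 0.05 and 0.27.

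**Figure D4:**
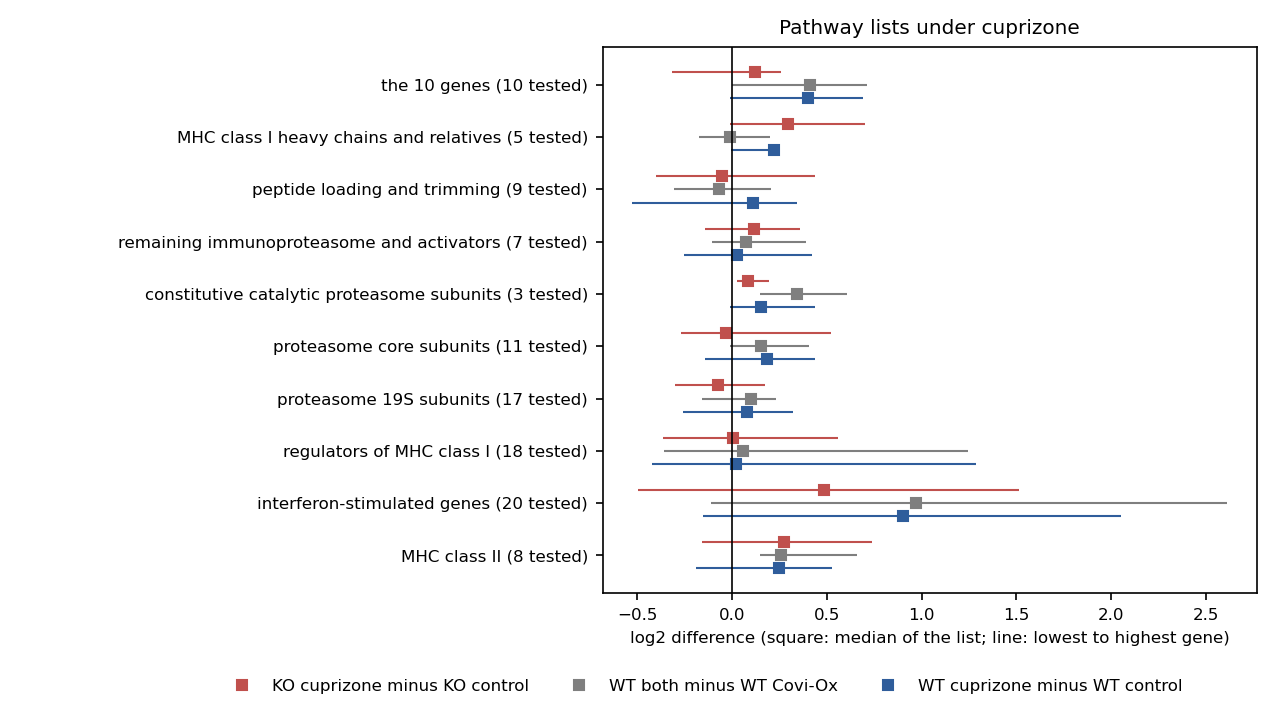
Median log2 difference (square) and the lowest to highest gene (line) of each pathway list under cuprizone, in KO, in WT on Covi-Ox and in WT on chow. The interferon-stimulated genes have medians of 0.48, 0.97 and 0.90, and the 10 genes of 0.12, 0.41 and 0.40.

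Across the 22 arrays the mean of the 10 genes and the mean of the 20 interferon-stimulated genes had Pearson r = 0.83, a description of arrays that share their groups. WT arrays had interferon means of 6.66 to 6.77 without cuprizone and 7.35 to 8.06 with it, and 8 of the 11 KO arrays lay in the gap between, where there was no WT array to set beside them. At the upper edge of the gap, the KO arrays with the highest interferon means, set A replicate 1 (7.39) and set B replicate 3 (7.34), had means of the 10 genes of 8.06 and 8.20. WT cuprizone replicates 1 and 2 (7.35 and 7.47) had 8.32 and 8.36. The diet of these KO arrays is unknown, and what sets the means of the 10 genes apart was not tested. Psme1 followed the interferon mean with r = 0.87, Psmb8 with 0.84, Tap1 with 0.83 and Psme2 with 0.80. H2-M3 (0.59), Tapbp (0.55), H2-Q4 (0.54), Tap2 (0.14) and B2m (0.07) followed it less.

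**Figure D5:**
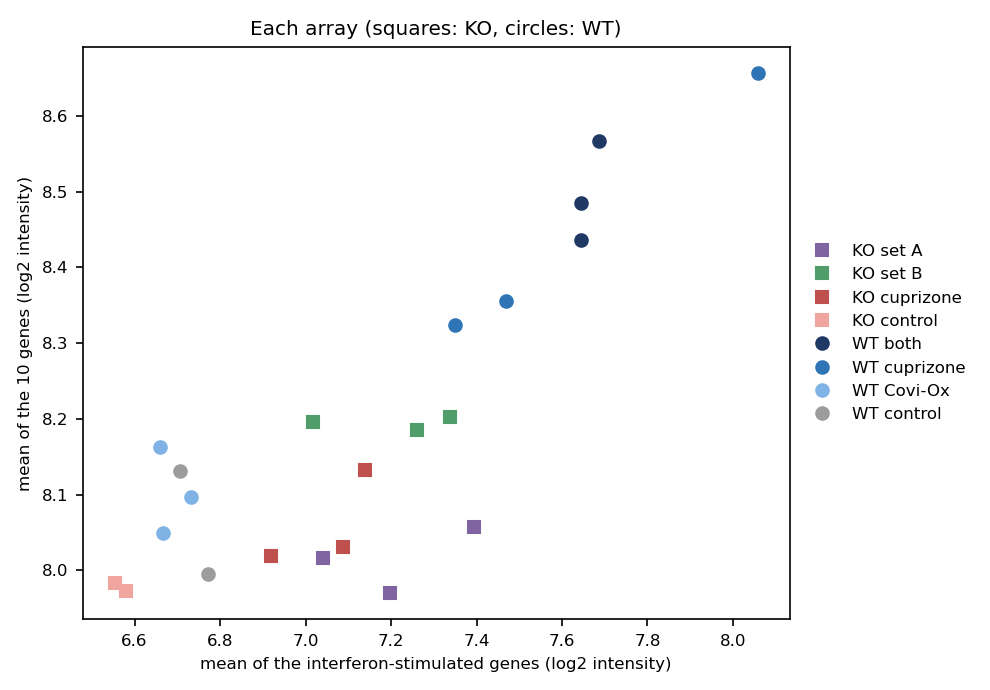
Mean log2 intensity of the 10 genes (vertical axis) against that of the 20 interferon-stimulated genes (horizontal axis) on each array, squares for KO and circles for WT. WT cuprizone and WT both lie at the upper right, and the 3 arrays of KO set A lie between 7.97 and 8.06.

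Among themselves the 10 genes had a median pairwise r of 0.54 over 45 pairs, with 27 above 0.5 and a range from −0.39 to 0.90. The closest pair was Tap1 and Psme1 (0.90), and the most opposed was B2m and Tap2 (−0.39). With group means removed the median was 0.13. Psmb8 and H2-M3 kept 0.74 and Tap1 and Psme1 kept 0.71, and Tap1 and Tap2, which form a single transporter, had 0.16 over all arrays and 0.06 within groups. Tap1 and Psmb9, which share a promoter region, had 0.69 over all arrays and 0.27 within groups. The genes whose profile was most like the mean of the 10, out of 11264 named candidates, were Bola2 (r = 0.97), Pld3 (0.97), Mif (0.96), Eif3k (0.96), Ctsz (0.96), Pgam1 (0.96), Nceh1 (0.96) and Pkm (0.96). None of these 8 is in a pathway list.

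The labelled cell type and genotype were checked. Trem2 read between 84.5 and 114 on KO arrays and between 1022 and 1724 on WT arrays (−3.96 ± 0.11 for KO cuprizone against WT cuprizone). The 9 microglial markers measured of 10 averaged 11.0 to 11.6 on every array. They were lower in WT both (10.995 to 11.04) than in WT Covi-Ox (11.43 to 11.46), with 7 of 9 called lower. In WT cuprizone they averaged 11.1 to 11.3, against 11.40 to 11.46 in WT control, with 8 of 9 without overlap and none called. Border macrophage markers averaged 7.25 to 7.61 in WT both, against 8.05 to 8.32 in WT Covi-Ox (3 of 7 called lower), and 7.48 to 7.95 in WT cuprizone, against 8.26 to 8.28 in WT control (1 of 7 called lower). Endothelial markers averaged 4.71 to 4.90 in WT both, against 4.45 to 4.65 in WT Covi-Ox, and 4.65 to 4.89 in WT cuprizone, against 4.46 to 4.64 in WT control. Of the 3 tested, 1 was called higher in each comparison and 1 lower in WT both. Of 6 tested monocyte markers 3 were called higher in WT both, with list means of 5.82 to 5.95 in WT both and 4.59 to 4.64 in WT Covi-Ox. WT cuprizone had 1 of 6 called higher and list means of 5.31 to 6.06, against 5.25 to 5.46 in WT control. Of 6 tested neutrophil markers 1 was called higher in WT both, with list means of 5.13 to 5.45 in WT both and 4.38 to 4.69 in WT Covi-Ox, and in WT cuprizone they ran from 5.45 to 6.88, against 6.85 to 6.89 in WT control. The 11 T and NK cell markers measured averaged 4.22 to 4.42 on every array. Cd3e, Cd8a, Cd4 and Thy1 were bright enough to test, with none called in either WT comparison, and the remaining 7, Cd3d, Cd3g, Gzma, Gzmb and Ncr1 among them, were not. The part of the cell type markers in the differences under cuprizone was not tested.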

How the data were processed

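Per the submitters' processing notes the arrays (Affymetrix MoGene 1.0 ST) were processed with RMA, which corrects background, normalizes between arrays and summarises probes. The sources used here give no version of it. The authors deposited probe set intensity on a linear scale, 28098 probe sets with array medians between 36.1 and 38.6. For the tests log2 of the deposited intensity was taken. Probe sets listed with 1 gene in the platform's table were used (21640), the brightest per gene, and genes brighter than the 50th percentile of an array, on 2 or more arrays, were tested (11830 of 19936).

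One limma model (limma 3.58.1, R 4.3.3) of 8 group means over 22 arrays, with 14 residual degrees of freedom, gave 17 comparisons. P-values were adjusted by Benjamini-Hochberg over all genes tested in a comparison and called at 0.05. The number of arrays limits the precision: the median SE was 0.14 for 3 against 3 arrays and 0.15 for 3 against 2. On simulated data the fit recovered 46% of 1.5-fold and 96% of 2-fold changes for WT cuprizone against WT control, and 16% and 70% for the difference of effects (11830 genes). The simulated noise was normal, independent between genes and alike on all arrays, and few genes were changed. Since WT cuprizone replicate 3 stood apart from its group, these rates describe the simulation and may not hold for these arrays.

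The members and lists were chosen with earlier results of these data known. Named genes are the 10 members, Trem2, 6 relatives with a probe set (Irf1, Nlrc5, Psmb5, Psmb6, Psmb7 and Psmb10), up to 4 called genes per list in 3 comparisons, and the 8 genes most like the members' mean. H2-T24 and the tested heavy chains, and the markers singled out, were named after their values were seen.

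Same-numbered arrays did not deviate together (71 pairs, median r −0.00, lowest −0.23, 3 above 0.1), so numbers were not treated as pairs. Alternatives were the replicate block, other filters, scalings, variance models and thresholds, all probe sets averaged, array weights, each array left out, the 3 arrays low in immediate-early genes left out or modelled, and only the compared arrays fitted.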

Additional observations from a re-analysis of the deposited data

Results flagged for a closer look

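Tap2, the transporter subunit, was picked out because every cuprizone array lay below the controls in KO and above them in WT. It read 68.7, 66.9 and 62.9 in KO cuprizone, against 74 and 92.1 in KO control, and 67.6, 86.8 and 76.8 in WT cuprizone, against 66.2 and 65.2 in WT control. The KO effect minus the WT effect was −0.54 ± 0.20 on the log2 scale, and the limma test of that difference did not pass (adjusted p = 0.354).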

How the results depend on the processing

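Under the alternatives the counts of the 10 genes called moved as follows. For WT cuprizone against WT control (1) the count was 3 with the filter at the 75th percentile, which removes Tap2 and H2-Q4, 2 with the trend and robust variance model, 0 at adjusted p under 0.01, 0 with only the arrays compared, and 0 to 3 with an array left out. For WT both against WT Covi-Ox (4) it was 2 to 5 with an array left out. For the WT cuprizone diets against those without (8) it was 5 with no filter, 4 at adjusted p under 0.01, 5 without the 3 arrays low in immediate-early genes, 5 with those genes as a covariate and 4 to 7 with an array left out. For KO cuprizone against WT cuprizone (3) it was 5 with median centring, 5 with the immediate-early covariate, 0 without the 3 low arrays, 0 with only the arrays compared and 2 to 4 with an array left out. For KO set A against WT both (6) it was 4 to 5 with an array left out. For KO set B against WT both (2) it was 1 with the replicate block, 1 with no filter, 4 with array weights, 1 at adjusted p under 0.01 and 1 with any array left out. The H2-Q4 call of KO set B against KO control (1) gave 0 under the replicate block, no filter, the filter at the 75th percentile, array weights, adjusted p under 0.01 and only the arrays compared, and 0 to 1 with an array left out. KO set A against WT Covi-Ox (0) gave 1 with array weights, 1 without the 3 low arrays and 1 with the covariate, and KO set B against WT Covi-Ox (0) gave 1 with array weights. The replicate block moved no other count by over 1.5 times. Nlrc5 in the WT cuprizone diets changed sign when all its probe sets were averaged, to 0.28 (adjusted p = 0.021). Quantile normalization and median centring moved the median of all genes by −0.08 to 0.05. Beyond the settings' own construction (fewer genes or arrays), the cause of these changes was not tested. The controls of 2 arrays limit every comparison with them.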
